A study of Homo sapiens with 8 samples.

Results

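The baseline transcriptome of untreated OVISE cells whose SYK gene is wild type (SYK-WT) was described from the 2 libraries of that group, with no contrast to any other group. OVISE is an established human cell line from an ovarian clear cell carcinoma. A locus, which is a line of the deposited table, was counted as expressed where it reached 1 FPKM (fragments per kilobase of transcript, scaled to the sequencing depth) or more in both libraries. Loci that hold a small RNA were left out. The rule kept 11243 of the 27757 loci in the table, which is 44.4% of the 25325 loci without a small RNA. Among loci with a protein-coding accession it kept 10645, or 54%. A further 442 loci reached 1 FPKM in a single library, and 13640 lay under 1 FPKM in both. Just inside the threshold were CARF at 1.0 and 1.14 FPKM and ZNF197 at 1.0 and 1.07, in the order of the replicates, and just outside it were ACSS1 at 0.999 and 1.07 and ZNF57 at 1.29 and 0.998.

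The series profiled total RNA of OVISE cells that kept SYK or had lost it (SYK-KO), untreated or given EGF at 50 ng/ml for 24 h, by paired-end Illumina sequencing. Each of the 4 groups has 2 libraries. The knockout lines were raised from single cells after nicking by a paired-guide Cas9 nickase and puromycin selection. The labels do not say whether the SYK-WT cells went through transfection, selection or cloning, nor whether its 2 libraries came from separate cultures, so the spread between them may be technical. SYK is a cytoplasmic tyrosine kinase that immune receptors use for signalling. It stood at 4.91 and 5.30 FPKM in the untreated SYK-WT libraries, at 3.88 and 3.62 in SYK-WT EGF, at 3.11 and 3.43 in SYK-KO, and at 2.80 and 3.16 in SYK-KO EGF. The SYK-KO libraries thus kept SYK RNA, at levels not far below those of SYK-WT EGF.

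Ovarian clear cell carcinoma is an epithelial cancer that often arises in endometriosis. Its cells typically carry PAX8, a transcription factor of Müllerian and renal epithelia. Simple epithelia of this kind build their cytoskeleton from the keratin pair KRT8 and KRT18 and seal their contacts with claudins, E-cadherin and EPCAM.

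The 2 libraries were of similar estimated depth, at about 26800000 fragments for replicate 1 and 24600000 for replicate 2, within the range of 22800000 to 26800000 over all 8 libraries. The estimate rests on what 1 fragment is worth at weakly covered loci, and assumes that the FPKM of a library were scaled to its own fragment total. The SYK-WT pair stood further apart than the pairs of the other groups, as detailed after the levels. Its position between the SYK-KO and SYK-WT EGF levels was taken at 242 loci chosen from the other 6 libraries alone. At these loci SYK-KO cells with and without EGF were alike and SYK-WT EGF cells differed from them. The choice did not separate effects of genotype from effects of EGF in SYK-WT cells alone. Nearness to the SYK-KO level is therefore no sign of genotype. Replicate 1 lay nearer the SYK-WT EGF level at 238 of these loci and replicate 2 at 206, while replicate 2 lay nearer the SYK-KO level at 36. Both library values are therefore given for each gene below, in the order of the replicates, and the counts without either library are in the closing section.

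All 4 genes chosen as markers of the cells were expressed. They were chosen with earlier results of these data known, so this is no check of identity. PAX8 (listed at chr2:113973574-114036498, hg19) was at 148 and 193 FPKM, a mean of 171 ± 31.5 (SD, n = 2). KRT8 (chr12:53290971-53346685, an interval it shares with KRT18) was at 2396 and 2741 FPKM. The EGF receptor EGFR (chr7:55086725-55275031) was at 36.4 and 50.7 FPKM, and agrin, AGRN (chr1:955503-991499), a heparan sulfate proteoglycan of basement membranes, was at 273 and 341 FPKM. All 4 were higher in replicate 2, by 1.14-fold to 1.39-fold. In the other 6 libraries PAX8 ranged from 173 to 234 FPKM and EGFR from 41.8 to 58.1, so that replicate 1 was the lowest of all 8 libraries for both genes.

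Transcripts of the translation machinery stood at the top of the level range. Ribosomal protein genes took 12 of the 15 highest loci, 39 of the highest 50 and 61 of the highest 100. These counts leave out RPS10 and RPL36A, whose loci merge several symbols and also lie among the highest 100. With RPS10 and RPL36A, the list of ribosomal proteins had 76 expressed loci, which carried 29.1% and 29.2% of all FPKM over expressed loci. Neither the counts nor these shares include RPL17, RPL28, RPL32, RPS3A and RPS27A, whose loci hold a small RNA. Of these, RPL28 was at 1626 and 1710 FPKM and RPS3A at 1537 and 1543. RPL13A was the highest locus, at 9534 and 10389 FPKM. RPS16 followed at 6349 and 7132, and RPS27 at 5364 and 5607. RPL8, RPL41, RPS19, RPS2, RPL37A, RPS28, RPL31 and RPL27 were also among the 12, between 3460 and 4644 FPKM. The other 3 of the highest 15 were TMSB10, which encodes an actin-sequestering thymosin, at 4186 and 5579 FPKM, the ferritin heavy chain FTH1 at 4160 and 4626, and beta-actin ACTB at 3172 and 3024.

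Many ribosomal protein messages are known to begin with a C followed by an unbroken run of pyrimidines, the terminal oligopyrimidine tract through which mTOR signalling controls their translation. Such a tract, counted as C at the annotated start followed by pyrimidines to a length of 5 bases on the sense strand, was searched in RefSeq windows of GRCh38.p14 that run from 250 bases before to 50 after the start. This search was chosen after the levels had been seen. The stretches printed here, from 45 bases before the start to 15 after it, show the starts of 9 of the highest ribosomal protein loci, with the pyrimidine run nearest the start in capitals.
RPL13A (chr19:49487563-49487622, plus strand): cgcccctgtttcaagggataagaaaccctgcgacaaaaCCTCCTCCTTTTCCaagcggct
RPS16 (chr19:39435935-39435994, minus strand): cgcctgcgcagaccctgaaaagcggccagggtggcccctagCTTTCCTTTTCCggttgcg
RPS27 (chr1:153990717-153990776, plus strand): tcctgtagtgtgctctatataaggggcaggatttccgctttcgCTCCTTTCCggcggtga
RPL41 (chr12:56116588-56116647, plus strand): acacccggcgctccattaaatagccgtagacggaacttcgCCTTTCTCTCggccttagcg
RPS19, first start (chr19:41860210-41860269, plus strand): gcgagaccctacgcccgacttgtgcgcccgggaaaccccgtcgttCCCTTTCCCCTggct
RPS19, other start (chr19:41860359-41860418, plus strand): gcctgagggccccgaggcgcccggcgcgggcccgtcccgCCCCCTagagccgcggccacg
RPL37A (chr2:216498799-216498858, plus strand): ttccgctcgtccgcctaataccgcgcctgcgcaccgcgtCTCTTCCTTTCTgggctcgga
RPS28 (chr19:8321451-8321510, plus strand): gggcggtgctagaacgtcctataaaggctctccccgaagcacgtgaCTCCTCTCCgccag
RPL31 (chr2:101002244-101002303, plus strand): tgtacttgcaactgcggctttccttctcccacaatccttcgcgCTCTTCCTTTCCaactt
RPL27 (chr17:42998374-42998433, plus strand): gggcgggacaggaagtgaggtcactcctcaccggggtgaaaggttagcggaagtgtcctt
A tract was found at the annotated start of RPL13A, RPS16, RPS27, RPL41, RPL37A and RPL31 and at the first start of RPS19. It was not found at the other start of RPS19, nor at that of RPS28, where the run begins 1 base further on, nor at that of RPL27.

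Of 74 ribosomal protein genes, 58 had a window. The tract was found at 41 of 70 windows of ribosomal protein genes (58.6%), against 4.07% of all 35116 windows. It was at 38 of 96 windows (39.6%) of the 100 highest loci with a single symbol, and at 8.89% of those windows once ribosomal protein genes were set aside. The windows of TMSB10 and GAPDH had none. Stretches of 3 genes without the tract follow, with TATAAA in capitals where it occurs, in GDF15 and ELF3. Pyrimidine runs were not capitalised in these stretches, although TMSB10 and ELF3 hold such a run shortly before the start. TATAAA was likewise not capitalised in the ribosomal stretches, although that of RPS28 holds it.
TMSB10 (chr2:84905611-84905670, plus strand): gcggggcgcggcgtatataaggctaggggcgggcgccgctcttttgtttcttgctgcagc
GDF15 (chr19:18386113-18386172, plus strand): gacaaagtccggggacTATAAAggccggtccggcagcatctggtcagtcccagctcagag
ELF3 (chr1:202010542-202010601, plus strand): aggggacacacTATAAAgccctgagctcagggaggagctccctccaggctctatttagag
TATAAA, searched on both strands, was in 14.8% of the windows of genes under 1 FPKM, against 11.5% of all windows. Expressed genes had it in 6.07%, 5.33% and 5.86% of their windows, from the lowest to the highest of 3 equal groups by level. CCAAT was in 34.1% of the windows of genes under 1 FPKM and in 37% of those of the highest group, against 34.6% of all windows. The E-box CACGTG was in 6.2% and 10.2%, against 7.26% of all. The median count of CpG dinucleotides was 8 in windows of genes under 1 FPKM and 25 to 26 in the groups of expressed genes. Over all windows it was 14. These matches describe letters in the windows, and no window was tested for function.

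Levels were spread over 4 orders of magnitude, and the highest 1000 loci held most of the signal. The median expressed locus had 10.1 FPKM in either library, with quartiles of 4.14 and 25.7 in replicate 1 and 4.15 and 26.4 in replicate 2. The 100 highest loci held 39.5% and 40.0% of the summed FPKM, and the 1000 highest held 70.3% and 71.1%. With the loci that hold a small RNA kept, the mean share of the 100 highest would be 73.1% in place of 39.7%. By mean level, 81 loci (0.72%) lay at 1000 FPKM or more and carried 36.8% of the sum. The largest group, 4397 loci (39.1%), lay between 5 and 20 FPKM. Below the highest 15, high loci that do not encode ribosomal proteins included the mitochondrial ribosomal RNA MT-RNR2 at 2713 and 2224 FPKM, GAPDH at 2684 and 3071 FPKM, C19orf33 at 1882 and 2222, the protease inhibitor SPINT2 at 1738 and 2073, TMSB4X at 1646 and 1649, the ferritin light chain FTL at 1533 and 1722, and osteopontin SPP1 at 1632 and 1105. KRT8, KRT18, KRT19 and ALDOA, which lie among them, are given with their lists. These genes were picked after their values had been seen.

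**Figure D1:**
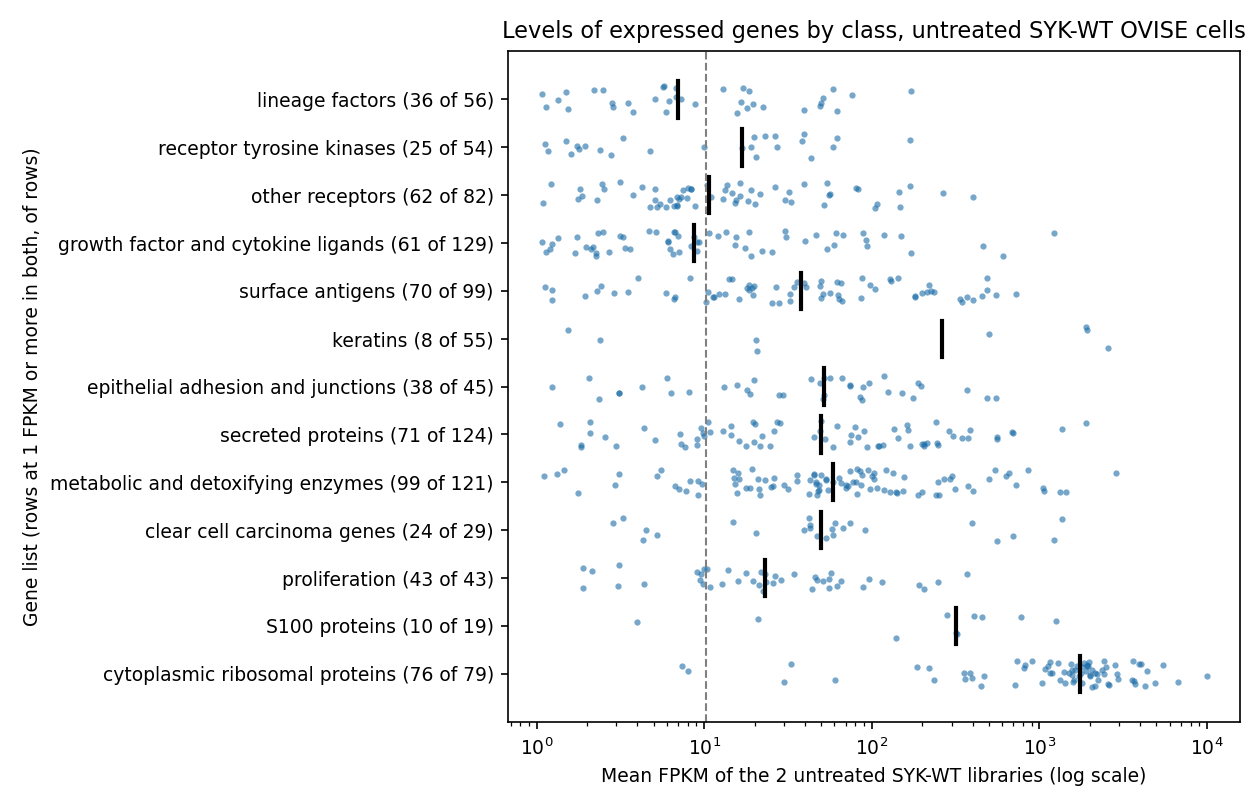
Each point is an expressed locus of a gene list, placed by its mean FPKM over the 2 untreated SYK-WT libraries on a log axis, with a black bar at the list's median and a dashed line at the median of all expressed loci (10.2 FPKM). The ribosomal protein genes lie furthest right with a median of 1759, and the lineage factors (7.03) and ligands (8.68) have medians left of the dashed line.

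Of 56 loci in the list of lineage factors, 36 were expressed (64.3%, beside 44.4% of all loci and 54% of coding loci), with a median of 7.03 FPKM against 10.2 for all expressed loci. PAX8 was the highest. ELF3, an epithelial ETS factor, was at 64.9 and 86.8 FPKM, and its relative EHF was at 49.9 and 49.5. The orphan nuclear receptor NR2F6 was at 52.2 and 71.8 FPKM. ESRP1, a splicing regulator of epithelial isoforms, was at 47.8 and 54.9.

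SOX17, an endodermal and Müllerian factor, was at 46.6 and 52.0 FPKM, and KLF5 was at 39.2 in both libraries. FOXJ1, which switches on the genes of motile cilia, was at 16.1 and 28.9 FPKM. It was the only expressed lineage factor that differed by more than 1.5-fold between the libraries. Other factors of the list were low. WT1, a marker of serous carcinoma and mesothelium, was at 0.119 and 0.132 FPKM, PAX2, a Müllerian and renal factor like PAX8, was at 0.0301 and 0.0411, and the hepatic factor HNF4A was at 0.0262 and 0.0288. The estrogen receptor ESR1, the progesterone receptor PGR and the squamous factor TP63 were listed at 0 in both libraries.

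Among receptor tyrosine kinases, EPHA2 was by far the highest and 3 of the 4 ERBB receptors were expressed. Of 54 loci, 25 were expressed (46.3%, beside 44.4% of all loci and 54% of coding loci), with a median of 16.9 FPKM. EPHA2, an ephrin receptor, was at 164 and 176 FPKM. ERBB2 was at 54.9 and 68.9 FPKM and EGFR at 36.4 and 50.7. ERBB3, which has little kinase activity and signals as a partner, was at 26.2 and 27.9, and ERBB4 was at 0.0649 and 0.0387. The order of means put ERBB2 above EGFR and EGFR above ERBB3, and the values of these neighbours did not overlap, although the gap between ERBB2 and EGFR was smaller than the spread of either between the libraries. Of the receptors of fibroblast growth factors, FGFR3 was the highest, at 49.1 and 68.6 FPKM. FGFR1 was at 23.3 and 16.6, FGFR4 at 22.6 and 23.8, and FGFR2 at 2.07 and 2.72. PTK7, a pseudokinase of planar polarity, was at 35.0 and 44.2, and the Wnt co-receptor RYK at 40.2 and 37.0. The hepatocyte growth factor receptor MET was at 19.6 and 21.5. Several receptors known from stromal, endothelial and haematopoietic cells were under 1 FPKM in both libraries. AXL was at 0.622 and 0.851, KIT at 0.00689 and 0.00753, PDGFRB at 0.00622 and 0.00679, and KDR at 0.00586 and 0.00640. MERTK, by contrast, was expressed, at 19.7 and 18.4.

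Of 82 loci of other receptors, 62 were expressed (75.6%, beside 54% of coding loci), with a median of 10.7 FPKM. TNFRSF12A, the receptor of TWEAK, was at 372 and 431 FPKM. Tissue factor F3, which starts coagulation, was at 286 and 246. The transferrin receptor TFRC was at 161 and 135 FPKM and the semaphorin receptor PLXNB2 at 134 and 158. Of the receptors of the IL6 family, OSMR was at 12.5 and 13.6 FPKM and the shared subunit IL6ST at 8.07 and 5.74, while LIFR was at 0.338 and 0.273. GPRC5C, an orphan receptor, was at 91.9 and 124.

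Of 129 ligand loci, 61 were expressed (47.3%, beside 44.4% of all loci and 54% of coding loci), with a median of 8.68 FPKM. A further 65 lay under 1 FPKM in both libraries. The cytokine MIF was at 1046 and 1389 FPKM, the stress-induced TGF-beta relative GDF15 at 659 and 560, and WNT7A, a Wnt of the female reproductive tract, at 483 and 441. Midkine, MDK, was at 145 and 154 FPKM and progranulin, GRN, at 112 and 126. IL6 was at 73.6 and 61.1 FPKM and LIF at 48.8 and 43.9.

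Of the ligands of EGFR, AREG and TGFA had the highest levels. Amphiregulin, AREG, was listed at 2 loci, at 228 and 116 FPKM and at 202 and 96.3, so its reads may have been split between copies. TGFA was at 90.5 and 96.4 FPKM and betacellulin, BTC, at 6.04 and 6.21. HBEGF was at 0.955 and 0.632, EGF at 0.529 and 0.560, and EREG at 0.301 and 0.127. AREG was about 2-fold higher in replicate 1 at either locus, whereas TGFA differed by less than 1.1-fold. Of the 61 expressed ligand loci, 6 were over 1.5-fold higher in replicate 2 and 8 in replicate 1, beside 5.34% of all expressed loci past that fold in either direction.

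**Figure D2:**
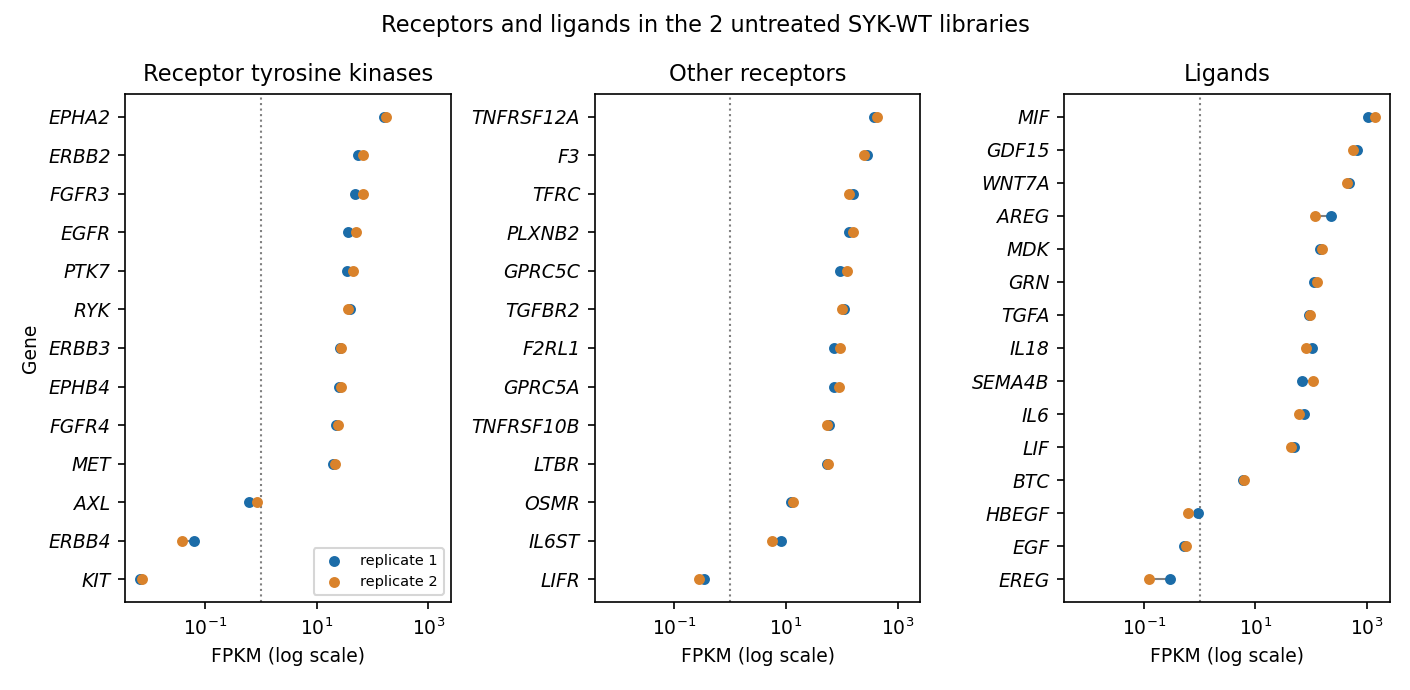
Levels of high receptor tyrosine kinases, other receptors and ligands, with low members of the same families under them, in FPKM on a log axis, blue points for replicate 1 and orange for replicate 2, and a dotted line at 1 FPKM. Most pairs of points touch, while the AREG points lie at 228 and 116 FPKM, and ERBB4, KIT, LIFR, EGF and EREG lie left of the dotted line.

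Surface antigens had a median of 37.7 FPKM over 70 expressed of 99 loci (70.7%, beside 54% of coding loci). The tetraspanin CD9 was at 700 and 753 FPKM, claudin 4 (CLDN4) at 515 and 590, EPCAM at 480 and 494, and the MHC class I light chain B2M at 470 and 444. LY6E was at 334 and 471 FPKM and the amino acid transporter chain SLC3A2 at 366 and 377. Several antigens used as ovarian cancer markers or drug targets, named after their values had been seen, were at lower levels than these. SLC34A2 was at 147 and 112 FPKM. The folate receptor FOLR1 was at 64.1 and 62.2 FPKM, the B7 family member VTCN1 at 47.8 and 64.6, and MUC1 at 35.2 and 46.5. MUC16, which carries the CA125 epitope, was at 10.9 and 13.5 FPKM and mesothelin, MSLN, at 5.68 and 7.63. CLDN6 was at 0.170 and 0.185, and the checkpoint ligand CD274 at 0.0650 and 0.0236.

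The 4 highest keratins were those of simple epithelia. Of 55 keratin loci, 8 were expressed (14.5%, beside 54% of coding loci) and 47 lay under 1 FPKM in both libraries. KRT8 was at 2396 and 2741 FPKM, its partner KRT18 at 1920 and 1946, KRT19 at 1721 and 2096, and KRT7 at 429 and 580. KRT10, KRT80, KRT81 and KRT16 were the other 4, from 1.52 to 23.8 FPKM, and are not simple-epithelial keratins. KRT15, at 17.7 and 12.2, was left out because its locus holds a small RNA. KRT5 was listed at 0 and 0.0701 FPKM, and KRT14 and KRT20 at 0 in both libraries. The keratin genes are arranged in clusters of related copies, and their reads may have been shared between members.

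The list of epithelial adhesion and junctions had 38 of 45 loci expressed (84.4%, beside 54% of coding loci), with a median of 51.6 FPKM. These counts are not of junction genes alone, since the list also holds VIM, CDH2 and the ZEB, SNAI and TWIST genes. Of those, VIM, CDH2, SNAI1 and TWIST1 are among the expressed loci. Besides CLDN4 and EPCAM, the vesicle protein MAL2 was at 385 and 355 FPKM, plakoglobin JUP at 174 and 222, CLDN1 at 213 and 166, and CLDN7 at 172 and 182. E-cadherin, CDH1, was at 84.7 and 90.8 FPKM, against 1.3 and 1.18 for N-cadherin, CDH2. The repressors of E-cadherin were low, with ZEB1 at 0.0472 and 0.0515 FPKM, SNAI1 at 2.40 and 2.35, and ZEB2 and SNAI2 listed at 0 in both libraries. The intermediate filament VIM, the locus of this list that differed by more than 1.5-fold, was at 67.3 and 126 FPKM.

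Secreted proteins had a median of 49.8 FPKM over 71 expressed of 124 loci (57.3%, near the 54% of coding loci). After SPINT2 and SPP1, galectin 3 (LGALS3) was at 650.5 and 745 FPKM, the urokinase plasminogen activator PLAU at 759 and 622, the inhibitor TFPI2 at 664 and 459, and IGFBP7 at 510 and 613. Basement membrane proteins were named after their values had been seen. High members were the laminin chain LAMC1 at 364 and 409 FPKM, agrin, and NID2 at 239 and 252. The collagens COL4A2, at 234 and 250, and COL4A1, at 208 and 204, were also high. Others were under 1 FPKM in both libraries, among them NID1 at 0.187 and 0.323, LAMA1 at 0.146 and 0.167, and COL4A5 at 0.0435 and 0.0416. The collagenase MMP1 was under the threshold at 0.272 and 0.344 FPKM, as was thrombospondin, THBS1, at 0.0634 and 0.00533. WFDC2, which encodes HE4, was listed at 0 in both libraries.

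Enzymes had a median of 58.4 FPKM over 99 expressed of 121 loci (81.8%, beside 54% of coding loci). Glycolysis supplied GAPDH, aldolase ALDOA at 1321 and 1582 FPKM, enolase ENO1 at 934 and 1188, and lactate dehydrogenase LDHA at 660 and 789. Lipid synthesis was represented by FDPS of the mevalonate pathway at 1148 and 954 and the desaturase SCD at 639 and 632. Of detoxifying enzymes, the peroxiredoxin PRDX1 was at 1374 and 1304 FPKM and the glutathione transferase GSTP1 at 724 and 978. AKR1C1 was at 0.337 in both libraries, AKR1C2 at 0.392 and 0.216, and CYP1B1 at 0.0899 and 0.166.

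The list of genes linked to clear cell carcinoma, by their level or, as for ARID1A, by mutation, had 24 of 29 loci expressed. That is 82.8%, beside 54% of coding loci, with a median of 50.1 FPKM. SPP1, MIF, LGALS3 and TFPI2 led it, followed by annexin 4 (ANXA4) at 362 and 434 FPKM and versican (VCAN) at 106 and 75.5. The glutathione peroxidase GPX3 was at 41.6 and 43.7 FPKM, and the diagnostic marker napsin A (NAPSA) at 5.12 and 5.37. ARID1A, a chromatin remodeller often mutated in this cancer, was at 3.93 and 4.74 FPKM. GPC3 lay at the threshold with 1.02 and 0.903, while IGFBP1 was at 0.576 and 0.729, SERPINA5 at 0.617 and 0.759, and LEFTY1 at 0.0468 and 0.0766. SPP1, TFPI2 and VCAN were all higher in replicate 1, and ANXA4 and MIF in replicate 2.

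All 43 loci of the proliferation list were expressed, beside 54% of coding loci, with a median of 23.0 FPKM. Cyclin D1 (CCND1) was at 344 and 394 FPKM and CCND3 at 256 and 240. The inhibitor genes CDKN1A, a p53 target, and CDKN2A, the locus of p16, were also high, at 187 and 195 and at 183 and 228. MYC was at 118 and 111 FPKM and MDM2, which degrades p53, at 108 and 85.0. Genes of cycling cells were lower, among them TOP2A at 84.4 and 93.9 and MKI67 at 9.76 and 10.3.

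Lists of markers of other cell types held members at or near 0 and members that were expressed. Over the whole table, 44.4% of all loci and 54% of coding loci were expressed. Of the leukocyte list, 3 of 22 loci were expressed, CD68 at 12.3 FPKM in both libraries, ITGB2 at 5.10 and 5.84 and LAPTM5 at 4.52 and 4.37, while the pan-leukocyte gene PTPRC was at 0.00721 and 0 and CD3D listed at 0. The summed level of the list was 23.9 and 25.1 FPKM. Of the endothelial list, EGFL7 alone was expressed of 12 loci, at 32.0 and 36.1 FPKM, with PECAM1 at 0.00804 and 0.00878 and CDH5 at 0.0260 and 0.0568. The sums were 32.6 and 36.9. Of the fibroblast list, 3 of 15 were expressed, S100A4 at 285 and 361 FPKM, VIM, and ACTA2 at 7.37 and 10.2, while DCN, LUM, COL1A2 and PDGFRA were listed at 0. The sums, 361 and 499, rested on S100A4 and VIM.

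Of the mesothelial list, 5 of 11 loci were expressed (45.5%, beside 44.4% of all loci and 54% of coding loci). The uroplakin UPK1B led it at 179 and 192 FPKM, followed by UPK3B at 9.82 and 16.0. CALB2 was at 0.342 and 0.143 and WT1 as given above, and the sums were 202 and 223. Of the squamous list, 2 of 14 were expressed, KRT10 at 20.2 and 21.5 and filaggrin FLG at 5.30 and 8.44, with sums of 25.6 and 30.1. In bulk RNA, fewer cells of a type and less RNA per cell cannot be told apart.

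A value of 0 in this table did not always stand for a silent gene. RPS18, a ribosomal protein that cells cannot do without, was listed at 0 at all 6 of its loci in both libraries, and HLA-E at all 7 of its loci. PRDX2 and CD99 were likewise listed at 0. Genes of the MHC region of chromosome 6 are spread over 7 alternative haplotypes of the reference, with 1140 loci of which 18 were expressed. Values of genes in that region, such as DDR1, which was listed at 0 at 5 of its 6 loci and at 1.42 and 1.57 FPKM in the sixth, are therefore uncertain. Over all loci without small RNAs, 7584 were listed at 0 in both untreated SYK-WT libraries and 5921 in all 8 libraries.

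The 2 libraries ranked genes alike but differed more than those of the other groups. On the log2(FPKM + 1) scale, Pearson's r was 0.990 and Spearman's rho 0.987 across the 11243 loci, which are not independent replicates. The median absolute difference was 0.15 on the log2 scale (1.11-fold). Replicate 2 was over 1.5-fold higher at 379 loci (3.37%) and replicate 1 at 221 (1.97%), which is 5.34% together. Differences over 2-fold were seen at 36 and 29 loci. Over the same loci, the share past 1.5-fold was 0.898% in the SYK-KO pair, 0.765% in SYK-WT EGF and 1.17% in SYK-KO EGF, with median absolute differences of 0.0656, 0.0697 and 0.0817. These loci were selected by their level in the SYK-WT libraries, and no test was made of the difference between pairs.

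**Figure D3:**
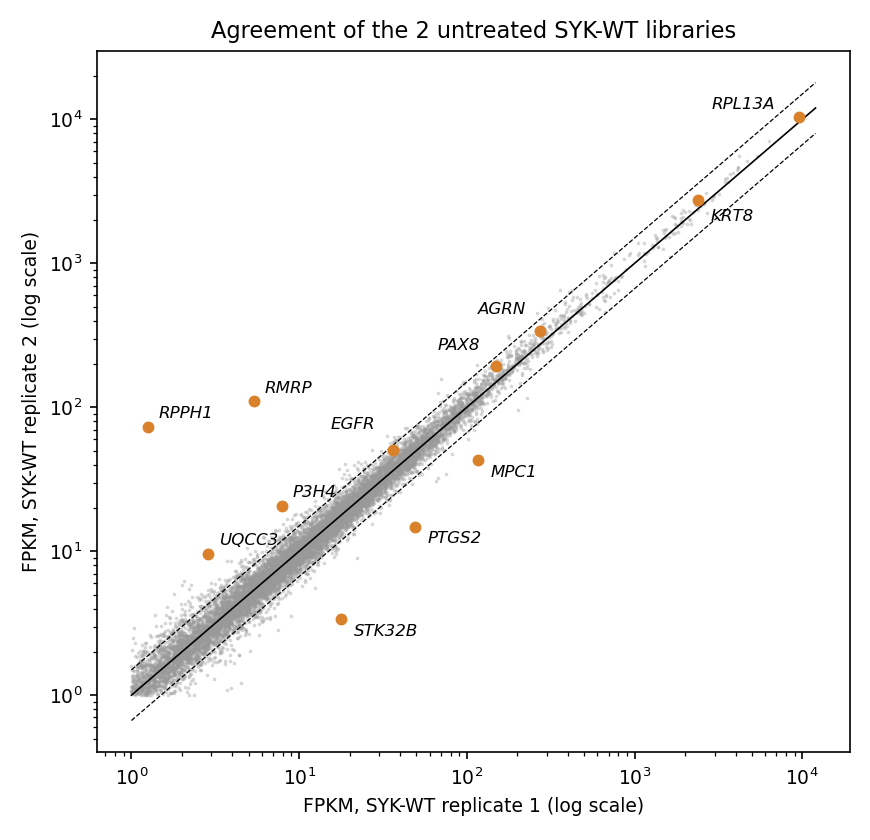
Each grey point is an expressed locus with its FPKM in replicate 1 (x axis) and replicate 2 (y axis), both on log axes, with a solid line at equality and dashed lines at 1.5-fold, and named genes in orange. Most loci lie between the dashed lines, while RPPH1 and RMRP lie far above them and STK32B, PTGS2 and MPC1 below.

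The spread between the libraries exceeded what the number of fragments alone would give, at every level. For loci of 1 to 2 FPKM the median absolute log2 ratio was 0.21, against 0.13 computed for counting alone from the estimated depth and transcript lengths. For loci of 1000 FPKM or more it was 0.12, against 0.00656, and 0 of those 81 loci passed 1.5-fold. The share past 1.5-fold was 8.63% at 1 to 2 FPKM, 9.99% at 2 to 5, 4.21% at 5 to 20, 2.82% at 20 to 100 and 2.84% at 100 to 1000.

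The difference also ran with the base composition of the transcripts. GC content was known for 11021 expressed loci (98.0%), which were divided into 5 equal groups by GC content. In the lowest group, with a median of 39.3% GC, the median difference, replicate 2 minus replicate 1, was -0.13 on the log2 scale, and in the highest group, with 62.4%, it was 0.17. The counts past 1.5-fold went from 15 higher in replicate 2 and 70 higher in replicate 1 to 168 and 25. In the pairs of the other 3 groups the medians of the 5 groups stayed between -0.05 and 0.04. By transcript length, the medians went from 0.04 for the shortest to -0.04 for the longest. With the median of each GC group taken out, an alternative chosen after seeing the data, the median absolute difference was 0.12 and 262 and 192 loci still passed 1.5-fold. The part of GC content in the difference between the libraries was not tested.

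**Figure D4:**
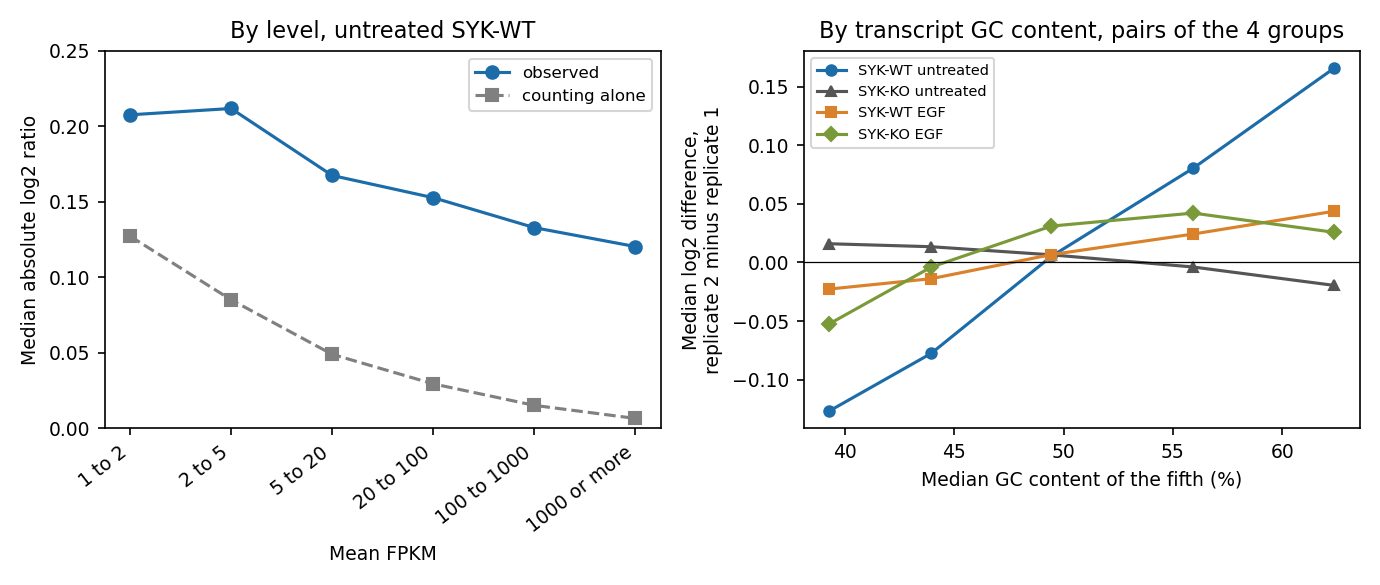
Left, the median absolute log2 ratio between the untreated SYK-WT libraries by mean FPKM, observed (blue) and for counting alone (grey). Right, the median log2 difference, replicate 2 minus replicate 1, against the median GC content of 5 equal groups of loci, for the pairs of the 4 groups, where the SYK-WT untreated line runs from -0.13 to 0.17 and the other 3 stay between -0.05 and 0.04.

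The largest differences were in structured non-coding RNAs. RPPH1, the RNA of RNase P, was at 1.2 FPKM in replicate 1 and 73.4 in replicate 2, and between 0 and 6.21 in the other 6 libraries. RMRP, the RNA of RNase MRP, was at 5.4 and 110, and between 4.89 and 9.38 in the other 6. Replicate 2 thus stood alone for both, 58.8-fold and 20.4-fold above replicate 1. The number of loci that hold small RNAs, without a protein-coding accession, at 1 FPKM or more was 37 in replicate 1, 65 in replicate 2 and 34 to 40 in the other 6 libraries. What this reflects was not tested.

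Protein-coding genes with large differences fell into several patterns. UQCC3, an assembly factor of respiratory complex III, was at 2.88 and 9.62 FPKM, and P3H4, of collagen modification, at 7.95 and 20.7. For UQCC3 the SYK-WT EGF libraries were at 2.43 and 2.94 and the SYK-KO libraries at 8.22 and 8.61, so that replicate 1 lay beside the former and replicate 2 above the latter. P3H4 was at 7.34 and 8.24 with EGF in SYK-WT cells and at 18.6 and 21.8 in untreated SYK-KO cells, and its 2 untreated SYK-WT values fell on these 2 levels. RGCC, a cell cycle regulator, was at 3.71 and 8.53, both under the range of the other 6 libraries, whose lowest was 10.2.

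In the opposite direction, STK32B, a serine/threonine kinase gene, was at 17.9 and 3.38 FPKM, with 16.9 and 19.2 in SYK-WT EGF and 8.96 and 8.20 in SYK-KO. PTGS2, the inducible cyclooxygenase, was at 48.9 and 14.8 FPKM, with 73.9 and 63.8 in SYK-WT EGF and 7.58 and 5.37 in SYK-KO. MPC1, a subunit of the mitochondrial pyruvate carrier, was at 117 and 42.8, and replicate 2 was the lowest of all 8 libraries, the others being at 95.9 to 220. UBXN8 was at 7.51 and 2.82 and the ribosomal S6 kinase gene RPS6KA2 at 9.0 and 3.55. Of the 379 loci over 1.5-fold higher in replicate 2, replicate 2 alone lay outside the range of the other 6 libraries at 129, replicate 1 alone at 80, both at 68 and neither at 102. Of the 221 higher in replicate 1 the counts were 89, 49, 42 and 41 in the same order. In both directions replicate 2 was more often the single library outside the range.

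**Figure D5:**
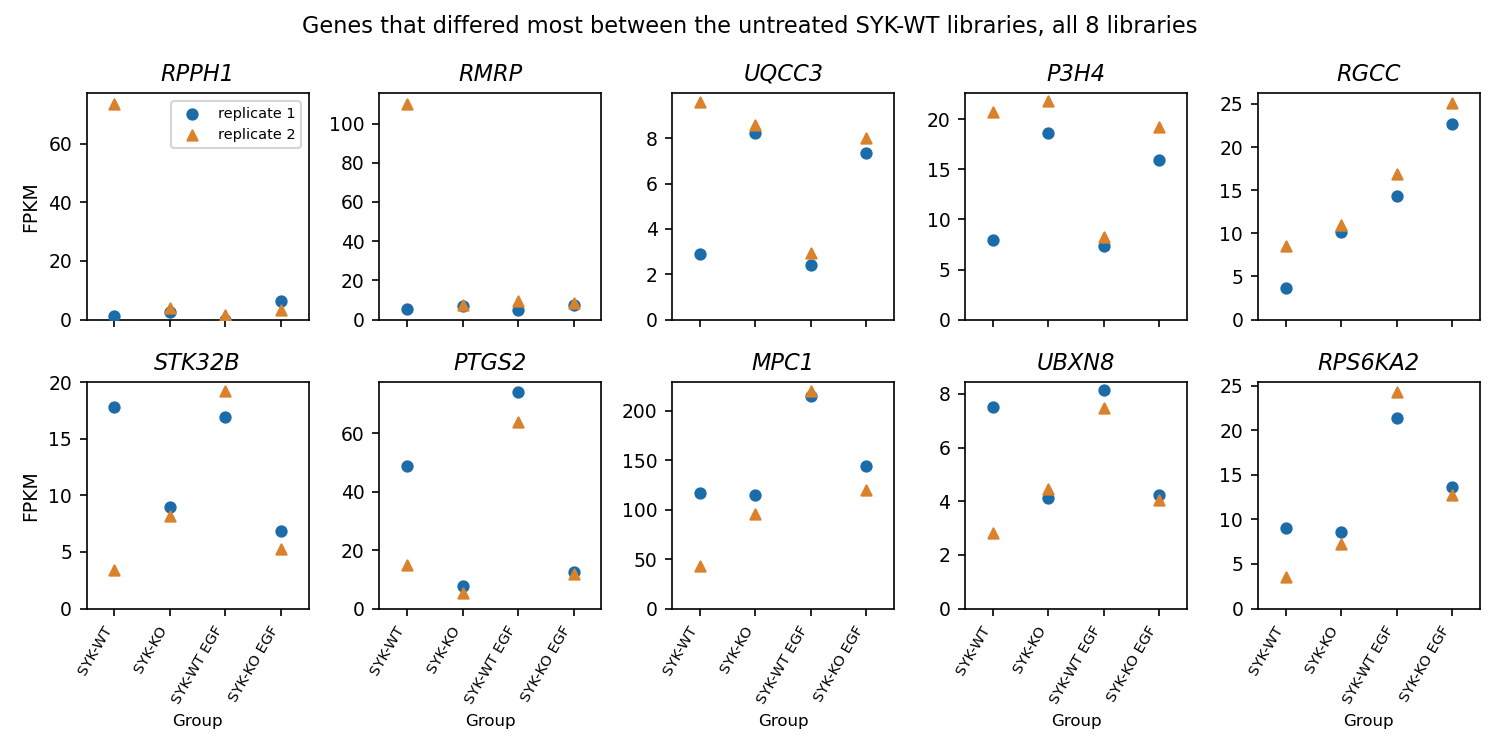
FPKM of the 10 single-symbol genes with the largest differences between the untreated SYK-WT libraries in all 8 libraries, circles for replicate 1 and triangles for replicate 2, each axis starting at 0. For RPPH1 and RMRP the untreated SYK-WT replicate 2 stands alone at 73.4 and 110 FPKM, while for UQCC3 and P3H4 replicate 1 lies with the SYK-WT EGF libraries and replicate 2 near the SYK-KO ones.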

How the data were processed

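The authors deposited 1 table of FPKM for 8 libraries, and every column was matched to a library by its title. Its header names no unit. FPKM is taken from the tools that the submitters' processing notes name, TopHat, Cufflinks and Cuffdiff 2.2.1.3 with hg19, and from the values. The sources used here do not give parameters, strand or the scaling between libraries. Gene coordinates are printed as the authors' table lists them, in hg19.

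Symbols were found for 27541 of 27757 loci (99.2%), 27218 from the RefSeq table and 323 from GENCODE, and 216 had none. Loci with a SNOR, MIR, RNU or SCARNA symbol (2432) were left out, whereas host genes ending in HG were kept. Of the 11243 expressed loci, 269 merge several symbols, 31 have no symbol, 399 are long non-coding RNAs, and 3383 share the listed interval with another locus, so that interval can cover several genes.

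Differences are on log2(FPKM + 1) and ratios on FPKM. With 2 libraries and no contrast, no test was made. For the depth, 1208 loci at or under 0.5 FPKM were used, where values step by single fragments, with quartiles of 24900000 and 27900000 fragments for SYK-WT replicate 1. The estimate and the summaries were tested on simulated data. GC content and length are those of GENCODE transcripts, and promoter windows those of RefSeq for GRCh38.p14.

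The 19 gene lists cover 961 loci without a small RNA. Named genes are the 4 markers, the 15 highest loci, the 6 highest expressed members of each list with low members its class is known by, and the 5 largest differences in each direction at a mean of 5 FPKM or more. CD24, which the rule names, is not reported because its row lies at a copy whose reads may not be placed uniquely. A few genes within this rule are not reported here. Other named genes were chosen after their values were seen. The members and lists were chosen with earlier results of these data known. Alternatives changed the threshold, the pseudocount, the scaling, and the treatment of small RNAs, merged loci and single libraries. Computation used python 3.11.15 and the packages pandas 2.3.3, numpy 2.4.6 and matplotlib 3.10.9.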

Additional observations from a re-analysis of the deposited data

Results flagged for a closer look

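Loci that hold a small RNA were left out of every level above, although 141 of them reached 1 FPKM or more in both untreated SYK-WT libraries. Of these, 111 also carry a protein-coding accession, because the table merges a host gene with the small RNA in its intron. They include EEF1A1 with SNORD141B, whose protein is a translation elongation factor, at 4936 and 4942 FPKM, and the integrin chain ITGB1 with SNORA86 at 337 and 330. The laminin genes LAMB3 at 189 and 229 and LAMA5 at 116 and 123 and the keratin KRT15 at 17.7 and 12.2 were left out in the same way. The levels of such merged loci cannot be divided between host gene and small RNA.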

How the results depend on the processing

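The count of 11243 expressed loci ran from 7653 with a threshold of 5 FPKM to 12209 with 0.5 FPKM, and was 11685 with 1 FPKM in either library, all within 1.5-fold. Without replicate 1 it was 11465 and without replicate 2 it was 11463. The share of loci past 1.5-fold, 5.34%, fell to 2.97% with a threshold of 5 FPKM, which removes the low levels where the share is highest. The share of the summed FPKM in the 100 highest loci, 39.7%, was 73.1% with small RNA loci kept and 40.4% without loci of several symbols, and ran from 39.5% to 40.0% without either replicate. The median absolute difference stayed between 0.11 and 0.17 over its alternatives. Of the 19 gene lists, the count of expressed members moved by over 1.5-fold in 3 at 5 FPKM and in 0 under the other 4 settings. No paired analysis was possible because no groups were compared and no result comes from a test. Depth limits the loci near 1 FPKM most, where counting alone gives a median log2 ratio of 0.13. A pair of libraries cannot give the spread of a group with any precision.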

Other observations

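S100 genes, which encode small calcium-binding proteins, had 10 of 19 loci expressed (52.6%, beside 44.4% of all loci and 54% of coding loci), at a median of 320 FPKM. S100A1 was at 1144 and 1388 FPKM, S100A11 at 760 and 796, S100A6 at 385 and 521, and S100A13 at 378 and 439, while S100P was at 0.764 and 0.727. The keratinocyte gene S100A7 was listed at 0 in both libraries. Of the mitochondrial ribosomal RNAs, MT-RNR2 was at 2713 and 2224 FPKM and MT-RNR1 at 357 and 654, opposite in direction between the libraries.

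Among heat shock and stress genes named after their values were seen, HSPB1 was at 753 and 1175 FPKM, HSP90AB1 at 1377 and 1300, and DDIT4 at 664 and 798. The metallothionein MT2A was at 69.8 and 158 FPKM and its relative MT1F at 3.93 and 8.58. The other 6 libraries held MT2A at 289 to 583 FPKM, so both untreated SYK-WT libraries lay under their range. HCAR1, a lactate receptor, was at 22.3 and 9.03 FPKM, with 16.2 and 15.9 in SYK-WT EGF cells and under 0.04 in the SYK-KO libraries.

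Expression was unevenly spread over chromosomes. The share of loci expressed ran from 33.5% on chromosome 21 and 34.2% on chromosome 13 to 54.8% on chromosome 16 and 55.6% on chromosome 19. The median level of expressed loci ran from 6.28 FPKM on chromosome 18 to 15.1 on chromosome 20.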
